A study of Mus musculus with 2 samples.

Results

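Serpins are protease inhibitors, and 7 of their genes are described here across eosinophils and dendritic cells of the mouse small intestinal lamina propria: Serpinb2, Serpinb9, Serpinb6b, Serpinb1a, Serpinb6a, Serpinb8 and Serping1. They are 7 of 12393 genes that could be named on the array, and 7 of the 30 serpin genes among them. Each gene was taken with every probe set annotated to it alone, which gave 8 probe sets, with 2 for Serpinb1a. The 7 genes were chosen by their signals on the same 2 arrays, so every difference below is a description without a test.

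Cells came from unstimulated C57BL/6 mice aged 8 weeks, and the populations were isolated by fluorescence-activated sorting, per the design text. Eosinophils were CD11b+, CD11c intermediate, MHCII- and SiglecF+, and dendritic cells were CD11c+ and MHCII+, a gate that does not by itself keep out macrophages. Each population was measured on 1 array, and how many animals were pooled for it is not stated. No replicate error can be had from single arrays, so a value describes its array and not the population.

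A serpin carries an exposed loop that a protease cleaves as if it were a substrate. The inhibitor then changes shape and traps the enzyme in a covalent complex, so each molecule is used once. Clade B serpins mostly lack a signal peptide and act inside the cell, where they protect leukocytes from their own or incoming granule proteases, while Serping1 is secreted and acts in plasma and tissue fluid.

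Signals are linear intensities in arbitrary units. A floor was set at the median of all signals, 134.7 units, and signals below that level were set to it before ratios were formed, so such a ratio is a lower bound, written "at least". Genes of germ cells, lens, hair and sense organs served as a background list, and the 95th percentile of their signals was 194 units. The median signal was 148 units on the eosinophil array and 122 units on the dendritic cell array. A ratio of 4-fold was used as the mark for a difference.

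The 7 serpins differed in both directions, and no member was above the floor on both arrays. Of the 7994 genes above the floor on at least 1 array, 32.6% were above it on 1 array only. Serpinb2 was brighter in eosinophils by at least 4-fold, and Serping1 was brighter there with a lower bound under 4-fold. Serpinb6b, Serpinb9 and Serpinb1a were brighter in dendritic cells by at least 4-fold, and Serpinb8 and Serpinb6a with lower bounds under it. The counts at the 4-fold mark were therefore 1 of 7 members in eosinophils and 3 of 7 in dendritic cells. Over the 7994 genes above the floor on at least 1 array, 5.35% passed the mark in eosinophils and 5.35% in dendritic cells. That even split depended on the scale: it was 3.99% and 7.21% with each array centred on its median, and 1.98% and 14.2% with centring on the hybridisation spikes, a set of control probe sets 2.06-fold brighter in eosinophils. All 7 members passed that filter through 1 bright side only, and they were picked on these values, so nothing is read from their counts. The median log2 difference, eosinophils minus dendritic cells, was -0.80 over the members and 0.16 over the 7994 genes. The lower bound nearest above the 4-fold mark was that of Serpinb2, 9.29-fold, and the nearest below it was that of Serpinb8, 1.74-fold.

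**Figure D1:**
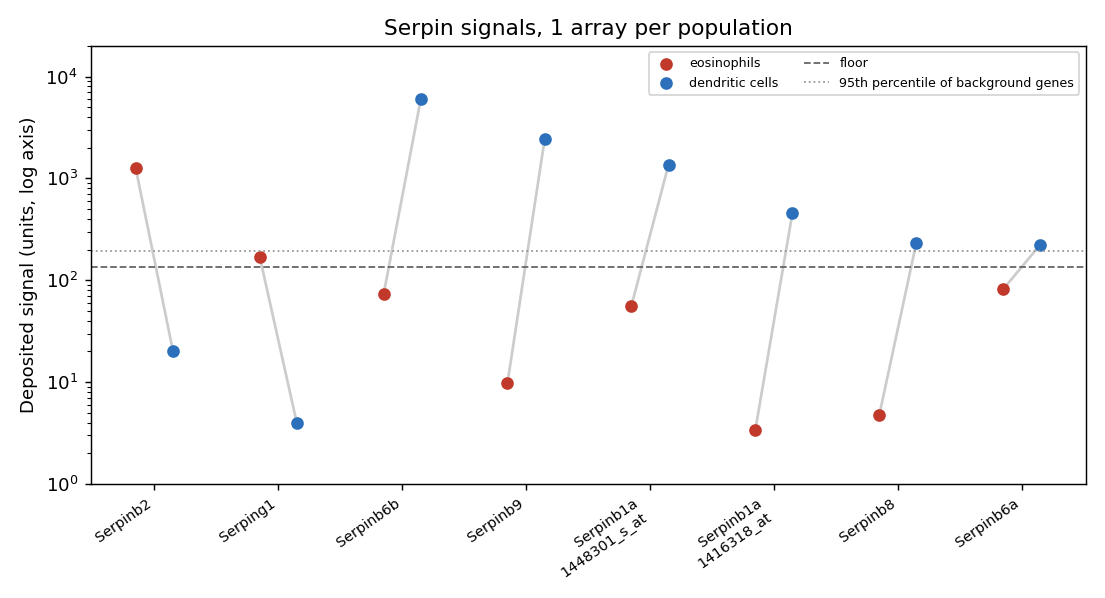
Deposited signal (units, log axis) of each probe set of the 7 serpins, with eosinophils left and dendritic cells right in each pair and 1 array per population. Serpinb2 reached 1252 units in eosinophils, Serpinb6b reached 5984 units in dendritic cells, and the dimmer side of every pair lay under the floor of 134.7 units (dashed). The dotted line is the 95th percentile of background genes, 194 units.

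Serpinb2, also known as plasminogen activator inhibitor 2, inhibits urokinase and tissue plasminogen activator and is known as an inducible serpin of macrophages. It gave 1252 units in eosinophils, against 20.2 units in dendritic cells. The eosinophil signal was above the background percentile and the dendritic cell signal was under the floor, so the populations were at least 9.29-fold apart, or 3.22 on the log2 scale. Measured against the background percentile in place of the floor, the bound was at least 6.46-fold, and once the floor was raised to the 75th percentile it fell short of 4-fold (1.53 on the log2 scale). Serpinb2 has a single probe set here, so no second reading of it was available. The 250 bases before its upstream annotated start (RefSeq, GRCm38.p6, chr1:107511173-107511422, plus strand) are shown because Serpinb2 was the only member past the 4-fold mark in eosinophils. Capitals mark the matches to the motifs searched.
Serpinb2 promoter: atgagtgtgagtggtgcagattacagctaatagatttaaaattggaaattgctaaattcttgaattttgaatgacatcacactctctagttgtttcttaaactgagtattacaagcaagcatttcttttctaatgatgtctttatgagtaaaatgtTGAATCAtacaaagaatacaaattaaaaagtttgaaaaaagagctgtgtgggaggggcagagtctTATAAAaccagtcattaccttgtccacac
The first run in capitals matches TGANTCA, the core that AP-1 factors bind, 94 to 88 bases before the start, and the next matches TATAAA, the TATA box, 29 to 24 bases before it. On either strand, TGANTCA was present in 6.73% and TATAAA in 12.3% of 32536 windows of that length. The overlapping window of a second annotated start holds the same matches and also AGATAA, which factors of the GATA family bind, 41 to 36 bases before that start. These are matches of letters, not measured binding.

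Serpinb6b and Serpinb9 were bright in dendritic cells and under the floor in eosinophils. Serpinb6b, which in the mouse inhibits granzyme A, gave 72.7 units in eosinophils, against 5984 units in dendritic cells, at least 44.4-fold apart (-5.47 on the log2 scale). Serpinb9, the mouse counterpart of human proteinase inhibitor 9, inhibits granzyme B and shields cells that make or meet it. Its signals were 9.80 units in eosinophils, against 2424 units in dendritic cells, at least 18.0-fold apart (-4.17). Both genes were under the floor in eosinophils and well over the background percentile in dendritic cells. With the background percentile as the lower limit, the bounds were at least 30.9-fold for Serpinb6b and at least 12.5-fold for Serpinb9.

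The 250 bases before the start of each gene (RefSeq, GRCm38.p6, plus strand) are shown because the genes lie side by side and were past 4-fold in dendritic cells under every processing setting tried. The window of Serpinb6b is chr13:32965011-32965260, and that of Serpinb9 is chr13:33004291-33004540. Capitals mark motif matches.
Serpinb6b promoter: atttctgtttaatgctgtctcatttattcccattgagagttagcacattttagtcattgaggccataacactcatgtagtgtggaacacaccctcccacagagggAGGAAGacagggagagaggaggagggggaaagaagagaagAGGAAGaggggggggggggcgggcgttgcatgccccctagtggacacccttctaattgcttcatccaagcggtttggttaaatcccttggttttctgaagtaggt
Serpinb9 promoter: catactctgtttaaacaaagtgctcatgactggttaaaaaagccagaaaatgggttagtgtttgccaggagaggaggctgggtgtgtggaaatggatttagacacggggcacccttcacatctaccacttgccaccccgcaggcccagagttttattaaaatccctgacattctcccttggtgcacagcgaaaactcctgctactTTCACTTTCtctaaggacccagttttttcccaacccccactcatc
The Serpinb6b window holds AGGAAG, an ETS family core, at 145 to 140 and at 105 to 100 bases before the start. The Serpinb9 window holds GAAANNGAA, part of an interferon response element, on the opposite strand at 45 to 37 bases before the start. AGGAAG was present in 29.6% and GAAANNGAA in 7.15% of all windows, on either strand. The windows of Serpinb6b and Serpinb9 shared no motif of the 7 searched.

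Serpinb1a, the mouse counterpart of human leukocyte elastase inhibitor, inhibits neutrophil elastase, cathepsin G and proteinase 3. Its probe set with the suffix _s_at gave 56.0 units in eosinophils, against 1364 units in dendritic cells, at least 10.1-fold apart (-3.34 on the log2 scale). Its other probe set gave 3.38 units in eosinophils, against 459 units in dendritic cells, at least 3.41-fold apart (-1.77). Both readings were under the floor in eosinophils and above the background percentile in dendritic cells, but only the _s_at probe set passed the 4-fold mark. That probe set stands for the gene here. With the other one in its place, or with the floor at the 75th percentile (-1.66 on the log2 scale), 2 members in place of 3 were past the mark in dendritic cells. In the platform's naming, the suffix _s_at marks probes that can match several transcripts, and Serpinb1a has close copies in the mouse, so this reading may hold signal of a copy.

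Serpinb6a, the counterpart of human proteinase inhibitor 6, inhibits cathepsin G and trypsin-like proteases. It gave 81.5 units in eosinophils, against 224 units in dendritic cells, at least 1.66-fold apart. Serpinb8, whose human counterpart inhibits furin, gave 4.71 units in eosinophils, against 234 units in dendritic cells, at least 1.74-fold apart. Both dendritic cell signals lay only a little above the background percentile, and against it the bounds shrank to at least 1.16-fold for Serpinb6a and at least 1.21-fold for Serpinb8. Serping1, the C1 inhibitor, blocks the first complement proteases, plasma kallikrein and factor XII. It gave 171 units in eosinophils, against 3.95 units in dendritic cells, at least 1.27-fold apart. Its eosinophil signal was above the floor but under the background percentile, so it may be background. The promoter window of Serpinb8 holds TGANTCA 23 to 17 bases before the start. Of the windows of Serpinb6a, one holds GAAANNGAA on the opposite strand, 83 to 75 bases before its start, and the other holds AGGAAG on the opposite strand, 210 to 205 bases before its start.

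The 4 members of the clade B cluster on chromosome 13 were brighter in dendritic cells, whereas the chromosome 1 cluster held members of both directions. In the RefSeq gene order, the chromosome 13 cluster has 16 protein-coding serpin genes, of which 9 had a probe set of their own and 4 are members. Serpinb1a, Serpinb6b and Serpinb9 lie at one end, with Serpinb1c between Serpinb1a and Serpinb6b, and Serpinb6a lies at the other end. Serpinb9b follows Serpinb9 and gave 86.6 units in eosinophils, against 178 units in dendritic cells. Serpinb1b comes next and gave 113 units in eosinophils, against 159 units in dendritic cells. Both of these dendritic cell signals were under the background percentile. Serpinb9c, Serpinb9g and Serpinb6c were under the floor on both arrays, with 14.2 to 79.2 units. The chromosome 1 cluster has 12 genes, 5 of them with a probe set, and only Serpinb10 lies between Serpinb2 and Serpinb8. Serpinb2 was bright in eosinophils and Serpinb8 was over the floor in dendritic cells. The dendritic cell signals of Serpinb8 (234 units) and Serpinb6a (224 units) lay only a little above the background percentile. The members were also picked on these values, so nothing is read from the contrast between the clusters. The genes of each cluster share sequence, so probe sets may not keep close copies apart.

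**Figure D2:**
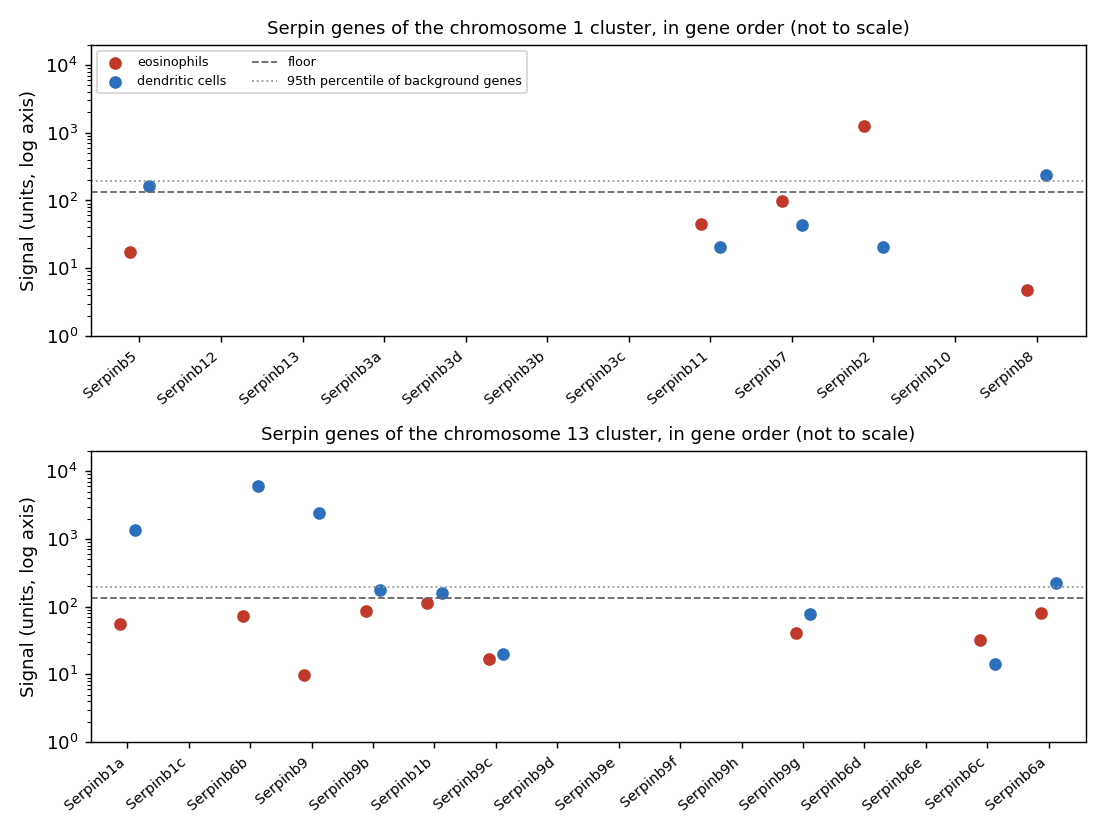
Signal (units, log axis) of the serpin genes of the chromosome 1 and chromosome 13 clusters, placed by gene order and not by distance, with eosinophils left and dendritic cells right and 1 array each. Genes without points had no probe set of their own here. Serpinb1a, Serpinb6b and Serpinb9 stand at 1364, 5984 and 2424 units in dendritic cells, while Serpinb9b and Serpinb1b beside them stay under the dotted background percentile of 194 units.

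The other serpins on the array were dim. Of 23 genes with 31 probe sets, 19 were under the floor on both arrays, and none of the other 4 was 4-fold apart. For scale, 7994 of all 12393 genes exceeded the floor on either array, and 5.35% of the 7994 passed 4-fold each way. Because the 7 members were picked by these same signals, dimness among the serpins left over follows in part from that choice. Nothing is therefore read from these counts. Serpind1, heparin cofactor II, was the only one above the background percentile, with 202 units in eosinophils, against 241 units in dendritic cells, 1.20-fold apart. Serpinb9b, Serpinb1b and Serpinb5 (17.6 units in eosinophils, against 166 units in dendritic cells) were over the floor in dendritic cells only, and the highest of their lower bounds was 1.32-fold. Serpinh1, the collagen chaperone of the family, Serpinf1 and Serpina3n were among those under the floor on both arrays.

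Transcripts of the granule proteases that the clade B members inhibit were near or under the floor, and the proteins were not measured. Of 11 granzyme and perforin genes, 3 exceeded the floor on either array and none was 4-fold apart. Of all 12393 genes, 7994 exceeded it, and 5.35% of these passed 4-fold in each direction. None among so few genes is close to that share. Gzmb, the target of Serpinb9, gave 78.3 units in eosinophils, against 6.75 units in dendritic cells, both under the floor. Gzma, the target of Serpinb6b, gave 17.3 units in eosinophils, against 203 units in dendritic cells, at least 1.51-fold apart. Gzmk gave 187 units in eosinophils, against 164 units in dendritic cells, and Prf1 gave 214 units in eosinophils, against 232 units in dendritic cells. For the neutrophil enzymes inhibited by Serpinb1a, Elane gave 155 units in eosinophils, against 7.18 units in dendritic cells, under the background percentile on both arrays. Ctsg gave 70.3 units in eosinophils, against 3.26 units in dendritic cells, and Prtn3 gave 75.4 units in eosinophils, against 36.2 units in dendritic cells, all under the floor. Ctsc, which activates such proteases, was brighter in eosinophils, with 4367 units against 1090 units in dendritic cells (4.01-fold). Of 9 mast cell protease genes, only Tpsab1 was over the floor, with 8.90 units in eosinophils, against 157 units in dendritic cells.

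Among plasminogen activation genes, transcripts of the binding proteins were bright and those of the proteases that Serpinb2 inhibits were not. Plau, urokinase, gave 47.3 units in eosinophils, against 53.8 units in dendritic cells, and Plat, tissue plasminogen activator, gave 2.92 units in eosinophils, against 123 units in dendritic cells. All of these lay under the floor. Plaur, the urokinase receptor, was brighter in eosinophils, with 2330 units against 399 units in dendritic cells (5.84-fold). S100a10, which binds plasminogen as a partner of annexin A2, was brighter in eosinophils, with 2080 units against 181 units in dendritic cells (11.5-fold). Its second probe set was 10.8-fold apart in the same direction. The dendritic cell signals of S100a10 were themselves under the background percentile, so its folds may be lower bounds. Plgrkt was 1.86-fold brighter in eosinophils. Anxa2 was 1.76-fold brighter in dendritic cells, with 3570 units in eosinophils, against 6290 units in dendritic cells. Other probe sets of Anxa2 gave 65.6 and 133 units in eosinophils, against 4.53 and 142 units in dendritic cells, all under the background percentile. In all, 5 of 7 genes of the list were above the floor, as were 7994 of all 12393 genes, and 2 of the 5 passed 4-fold in eosinophils, where 5.35% of the 7994 did. Their median log2 difference was 0.90, beside 0.16 over the 7994 genes. The list was chosen with earlier results of these data known, so nothing is read from its count or median.

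Among the convertases listed for Serpinb8 and the contact system and complement genes listed for Serping1, none was 4-fold apart. Of all 12393 genes, 7994 were above the floor, and 5.35% of these passed the mark in each direction. None among so few genes is close to that share, so nothing is read from it. Furin, a proprotein convertase of the secretory pathway, gave 27754 units in eosinophils, against 7714 units in dendritic cells, 3.60-fold apart. It was bright on the array where Serpinb8 gave 4.71 units. Of 7 convertase genes, 5 were above the floor and none reached 4-fold, with Mbtps1 at 1.49-fold (453 units in eosinophils, against 675 units in dendritic cells). Of 12 contact system and early complement genes, 3 were above the floor and none reached 4-fold. C1ra gave 207 units in eosinophils, at least 1.53-fold over dendritic cells, where it did not reach the floor, and C1qb gave 37.5 units in eosinophils, against 363 units in dendritic cells, at least 2.70-fold apart. C1s1, Klkb1 and F12 were under the floor on both arrays, with 6.95 to 133 units.

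**Figure D3:**
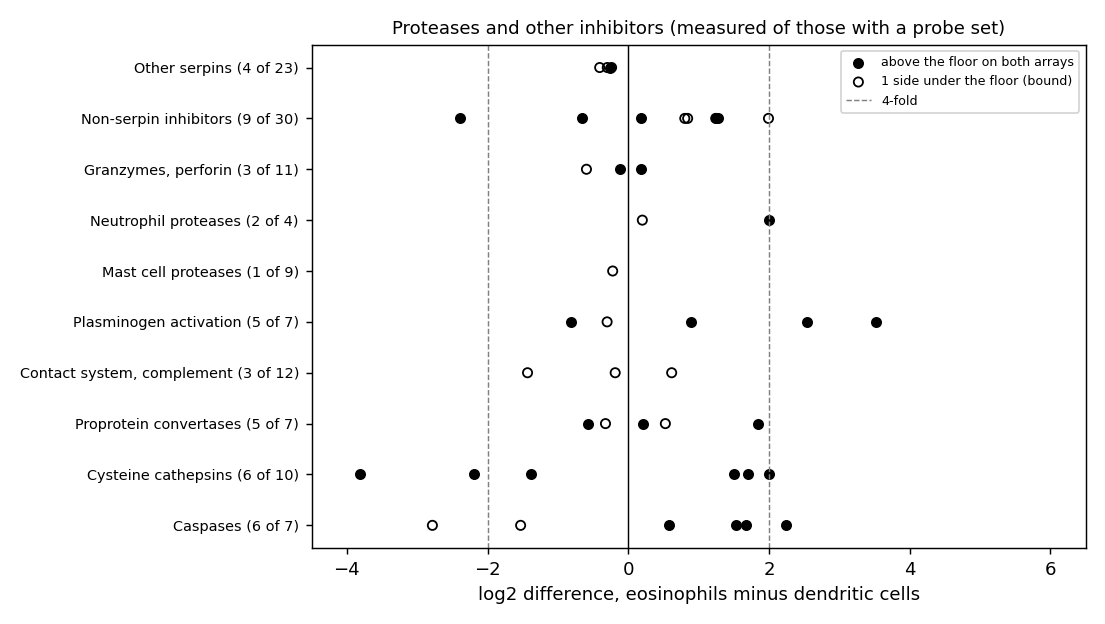
Log2 difference, eosinophils minus dendritic cells, of listed genes over the floor on either array, by list, with the number measured of those with a probe set (1 array per population). Open circles are bounds with 1 side under the floor, and dashed lines mark 4-fold. Granzymes and perforin lie between -0.59 and 0.19, while Ctss stands at -3.81 among the cysteine cathepsins.

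Cysteine proteases and inhibitors outside the serpin family also lay on both sides. Of 10 cysteine cathepsins, 6 were above the floor on both arrays, as were 5389 of all 12393 genes. Ctss, which processes the invariant chain, was 14.04-fold brighter in dendritic cells (318 units in eosinophils, against 4458 units). Ctsb was 4.57-fold brighter in dendritic cells, although its other 3 probe sets were 1.04-fold to 2.23-fold apart. Ctsc and Ctsh (3.25-fold) were brighter in eosinophils. Of 7 caspase genes, 6 were above the floor. Over all 12393 genes, 7994 were above it on either array, and 5.35% of these passed 4-fold in each direction. Casp9, the initiator of the mitochondrial death pathway, was brighter in eosinophils, with 3105 units against 653 units in dendritic cells (4.76-fold), while its second probe set (17.8 units in eosinophils, against 137 units in dendritic cells) did not exceed background. Casp6, an executioner caspase, gave 101 units in eosinophils, against 928 units in dendritic cells, at least 6.89-fold apart. Of 30 non-serpin inhibitors, 9 were above the floor. Cst3, cystatin C, which inhibits cysteine cathepsins, was the only one past 4-fold, at 5.24-fold brighter in dendritic cells (9400 units in eosinophils, against 49229 units). Spint1, an inhibitor of cell surface serine proteases, was brighter in eosinophils by at least 3.98-fold (537 units, against 115 units in dendritic cells). Timp2 and Pi16 were brighter in eosinophils by 2.42-fold and by at least 2.37-fold, with probe sets of Timp2 from under the floor on both arrays to at least 3.90-fold.

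The patterns most like those of the members were found by distance between floored log2 signals over the 2 arrays. The nearest to Serpinb6b were Havcr2, with 65.2 units in eosinophils, against 6026 units in dendritic cells, and Itga5. The nearest to Serpinb9 were Tnfrsf13c and Mt2, to Serpinb1a BC028528 and Mmp19, and to Serpinb2 Enah and Bod1l. Within 0.1 of a member on that scale lay 2 genes for Serpinb6b, 6 for Serpinb9, 6 for Serpinb1a and 11 for Serpinb2. Serpinb6a, Serpinb8 and Serping1, which lay close to the floor, had 88 to 306 such genes, so likeness says little for them. A likeness over 2 arrays is no more than a similar brightness on each.

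Markers of the gates and of other cells give the setting of these values. In sorted bulk RNA, fewer cells of a type and less RNA per cell cannot be told apart. Of all 12393 genes, 5389 were above the floor on both arrays, 1632 in eosinophils only and 973 in dendritic cells only. The counts of the lists below are to be set beside those. Of 9 eosinophil markers with a probe set, 7 were above the floor in eosinophils and 2 in dendritic cells, and of 16 dendritic cell markers, 7 were above it in eosinophils and 16 in dendritic cells. The T and NK cell list, whose cells also use Serpinb9 and Serpinb6b, had 4 of 10 genes above the floor on each array and a summed signal of 1029 units in eosinophils, against 5109 units in dendritic cells. Cd3e, a chain of the T cell receptor complex, was above the background percentile on both arrays, with 336 units in eosinophils, against 557 units in dendritic cells. Cd8a gave 141 units in eosinophils, against 3732 units in dendritic cells, some of which are known to express it. A second probe set of Cd8a gave 94.0 units in eosinophils, against 123 units in dendritic cells, under the floor on both arrays. Cd3d, Cd3g, Cd4, Ncr1 and Gzmb were under the floor on both arrays. The macrophage and monocyte list had 4 of 11 genes above the floor in eosinophils and 5 in dendritic cells, with sums of 2016 units in eosinophils, against 4782 units in dendritic cells, of which Cd14 gave 2641 units. The neutrophil list had 3 of 8 genes above the floor in eosinophils and 1 in dendritic cells, with sums of 1247 units in eosinophils, against 533 units in dendritic cells. The B and plasma cell list had 1 of 7 genes above it in eosinophils and 3 in dendritic cells, with 899 units in eosinophils, against 2088 units in dendritic cells. Sums of the mast cell list, with 0 of 11 genes above the floor in eosinophils and 2 in dendritic cells, were 573 units in eosinophils, against 1068 units in dendritic cells. The epithelial list had 3 of 11 genes above it on each array (1922 units in eosinophils, against 10435 units in dendritic cells, of which 9472 were Lyz1), and the stromal and endothelial list 6 of 13 in eosinophils and 3 in dendritic cells (2803 units in eosinophils, against 1590 units in dendritic cells). In the epithelial list, Lyz1 was read by a probe set with the suffix _x_at, and whether it matches Lyz1 alone was not tested. Vil1, Cdh1, Krt8, Krt20 and Fabp1 were under the floor on both arrays. Epcam was above it on both arrays, with 433 units in eosinophils, against 336 units in dendritic cells. Krt18 gave 870 units in eosinophils, against 60.7 units in dendritic cells, at least 6.45-fold apart. Fabp2 gave 79.1 units in eosinophils, against 226 units in dendritic cells. The part of other cell types in the serpin signals was not tested.

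The direction of each member's difference held under every other processing setting that measured it, while its size and its place at the 4-fold mark depended on the floor. That direction was nearly fixed in advance, because each member's dimmer side lay under the floor. Of 12 settings, 9 measured Serping1, 10 measured Serpinb6a and 11 measured Serpinb8. Serpinb6b ranged from -6.36 to -3.79 on the log2 scale over 12 settings, Serpinb9 from -6.56 to -2.49, Serpinb1a from -4.61 to -1.66 and Serpinb2 from 1.53 to 5.13. Serpinb6b and Serpinb9 passed 4-fold under each of them. Centring on the spikes kept Serpinb2 past 4-fold in eosinophils and the same 3 members in dendritic cells.

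**Figure D4:**
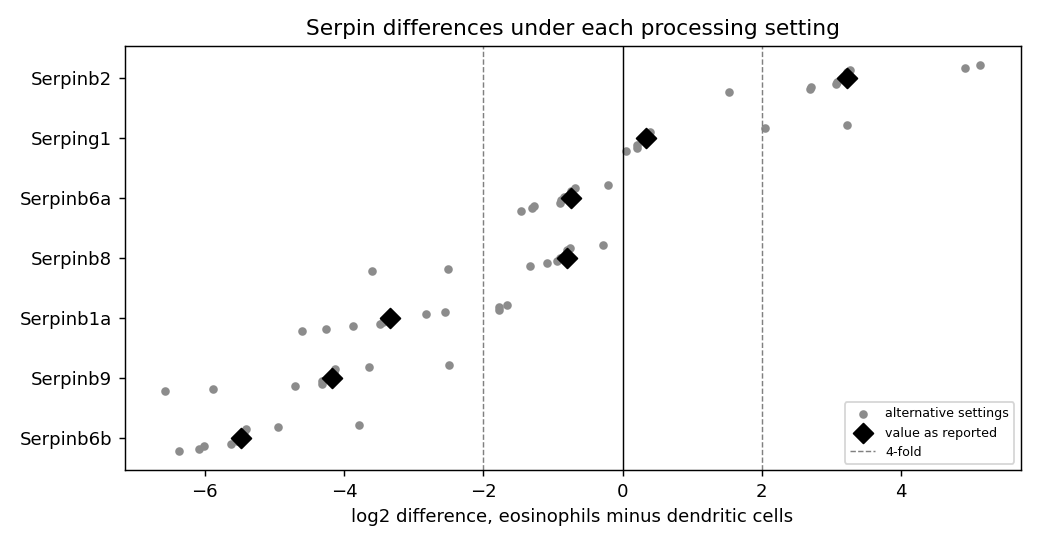
Log2 difference, eosinophils minus dendritic cells, of the 7 serpins as reported (diamonds) and under each alternative processing setting (grey points), with dashed lines at 4-fold and 1 array per population. Serpinb6b stays between -6.36 and -3.79 and Serpinb2 between 1.53 and 5.13, while Serping1 and Serpinb8 reach 4-fold only with a low floor or none.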

How the data were processed

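Total RNA of 1 eosinophil and 1 dendritic cell preparation was labelled as biotinylated cDNA, per the labels' protocols. The authors deposited a linear signal intensity for every probe set, without detection calls, and the submitters' processing notes name MAS5 5.0. Without the lowest and highest 2% of signals, the mean of each array was 499.9 units, so both share a global scale. No build behind the annotation is stated.

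Of 22690 probe sets, 64 were controls, 20393 had 1 gene in the platform annotation, 691 had several and 1606 were not listed. Symbols can be old and were updated through Entrez identifiers for 20364 with a RefSeq table of GRCm38.p6. Each gene was represented by the probe set whose log2 signals averaged highest. Python 3.11.15, pandas 2.3.3 and statsmodels 0.14.6 were used. No p-value or standard error was computed, since there is 1 array per population. The only spread at hand is that between probe sets of a gene, taken where both signals were above the floor. The log2 differences of such probe sets had an SD of 0.73 over 4402 probe sets of 1766 genes. No member was above the floor on both arrays, so that SD does not describe the members.

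The members and the gene lists were chosen with earlier results of these data known. Named genes were the members, every other serpin above the floor, up to 4 members per list with the largest difference, classical targets of the members, and for each member the 2 genes with the nearest pattern. Other serpins and cell markers that were under the floor, and second probe sets, were named after their values were seen. Promoter windows of RefSeq matched 5 of 7 members, and no window was available for Serpinb1a and Serping1. The 7 motifs, searched on both strands, were AP-1 (TGANTCA), the TATA box (TATAAA), the interferon response element (GAAANNGAA), ETS (AGGAAG), PU.1 (GAGGAAGT, which contains the ETS letters), the motif of GATA factors (AGATAA) and that of NF-kappaB (GGGANTTTC). The last 3 were present in 2.45%, 9.97% and 0.944% of windows, and in none of the windows printed.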

Additional observations from a re-analysis of the deposited data

How the results depend on the processing

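The alternatives were centring on the median, on 21 housekeeping genes or on 18 spike probe sets, quantile normalization, loess (span 0.3), other floors, no floor with 16 added, the mean, the smallest difference or only plain-suffix names among probe sets, and marks at 2-fold and 10-fold. No member reversed under any of them, which was nearly fixed in advance because each member's dimmer side lay under the floor. The count of members past the mark in eosinophils was 1 as reported, 2 with a floor at the 25th percentile (41.4 units) or no floor, when Serping1 joined Serpinb2, and 0 with a floor at the 75th percentile (433 units) or at 10-fold. In dendritic cells the count stayed between 2 and 4: Serpinb8 joined with the low floor or none, and Serpinb1a dropped out with the floor of 433 units, with the probe set of smallest difference and with plain-suffix probe sets. The all-gene counts, 428 each way as reported, moved as follows in eosinophils and dendritic cells: 161 and 1153 with spike centring, 844 and 665 with the low floor, 216 and 256 with the high floor, 1256 and 933 without a floor, 274 and 269 with the smallest difference, 1519 and 1241 at 2-fold, and 105 and 124 at 10-fold. A lower floor raises ratios by construction, and a higher one removes dim genes. No paired analysis was possible because each population has 1 array. Without detection calls, signals near 134.7 to 194 units may be background.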

Other observations

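A further 3 probe sets were annotated to several serpin genes and were not assigned to any. The probe set shared by Serpinb9e, Serpinb9f, Serpinb9g and Serpinb9h gave 16.1 units in eosinophils, against 118 units in dendritic cells, under the floor on both arrays. Those shared among Serpina1 genes gave 71.3 and 12.2 units in eosinophils, against 7.88 and 4.56 units in dendritic cells, also under the floor.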
